A study of Mus musculus with 8 samples.

Results

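The genes described here are 48 interferon-induced genes of the mouse intestine: antiviral effectors, sensors and transcription factors of the interferon response, ubiquitin-like and ADP-ribosyl modifiers, interferon-inducible GTPases, and genes of class I antigen processing. They were listed by name. For each gene every probe set that the platform annotation assigns to that gene alone was collected, and the brightest of them on average stood for the gene. All 48 had a probe set, among 18193 genes on the array, and all 48 passed the filter that left 14023 genes for testing: a signal above a floor of 64.1, taken from the 40th percentile of the arrays, in at least 2 of 8 arrays. Mx2 passed through 2 arrays, Mx1 through 6 and Sp100 through 7, and the other members were above the floor in all 8.

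Interferons are secreted proteins that alarm cells to viruses and other intruders. Type I and type III interferons, the latter acting chiefly on epithelium, activate the kinases Jak1 and Tyk2 and through them a transcription complex that contains STAT2 and IRF9 and binds the interferon-stimulated response element (ISRE). Type II interferon, made by T and NK cells, acts on the gamma-activated sequence (GAS), and many of the GTPases and antigen-processing genes respond to both kinds. The atypical chemokine receptor ACKR2, or D6, takes up and degrades inflammatory CC chemokines without signalling through G proteins. Mice with the Min allele of Apc lose the second Apc copy in scattered epithelial cells and develop intestinal adenomas.

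RNA of C57BL/6 mice at 110 days of age was measured on Affymetrix 3' expression arrays, 1 array for each of 8 groups. Non-tumour colon and non-tumour small intestine came from wild-type (WT) mice and from ACKR2-/- mice, neither of which carried ApcMin. Spontaneous tumours of colon and of small intestine (ileum) came from ApcMin/+ mice and from ACKR2-/-ApcMin/+ mice. The ACKR2 deletion and the Min allele were in all cells of the animals, RNA was pooled by genotype, and the number of animals in a pool is not given in the sources used here. A pool is thus 1 sample. An ACKR2 pair below is an ACKR2-deficient array against the ACKR2-sufficient array of the same tissue, and signals are MAS5 intensities written with the ACKR2-sufficient array first. No pair has a replicate of its own. Tests treated colon and small intestine as repeats of the same ACKR2 effect, so their p-values describe these arrays and not the spread between animals, and in whole tissue fewer cells of a type and less RNA per cell cannot be told apart.

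Several features of the arrays bear on every result that follows. The array labelled WT small intestine carried the colonocyte carbonic anhydrase Car1 at 18864, within the 9192 to 19254 of the colon arrays, against 42.3 to 114 in the other small-intestinal arrays, while its small-intestinal lactase Lct read 13572. Other colonocyte genes did not all follow Car1 in that array. Aqp8 read 958, against 105 to 122 in the other small-intestinal arrays and 1256 to 10805 in the colon arrays. Scnn1g (3.96) and Atp12a (24.2) were under the floor, as in the other small-intestinal arrays, and Car4 read 9661 against 9813 in ACKR2-/- small intestine. Counts over all 4 pairs, counts over tissues and ranks of arrays are given with and without the WT small-intestinal array. So are the counts of groups that do not overlap. The values of the non-tumour small-intestinal pair rest on it, and counts over both non-tumour pairs without it are those of non-tumour colon alone. Xist, the transcript that silences an X chromosome, read 7807 and 9809 in both WT arrays, 77.9 and 127 in both ACKR2-/-ApcMin/+ arrays and 2818 to 4827 in the others. The Y-linked Eif2s3y read 2.66 and 2.92 in the WT arrays and 888 to 1501 elsewhere. Sex make-up therefore cannot be told apart from ACKR2 status, nor from tumour status among arrays of the same ACKR2 status. Ackr2 itself read 71.3 to 153 and was not lower in the deficient arrays, and because the position of its probes relative to the deletion is not known, it checks nothing, and Apc read 1163 to 1725. Median signals were 85.2 to 102.8 in the deficient arrays and 115 to 133 in the sufficient ones, and Actb 3'/5' ratios were 1.28 to 1.39 against 1.13 to 1.17. Centring each array on its median raised the ACKR2 difference of all genes by 0.18 log2 in non-tumour colon, 0.27 in non-tumour small intestine, 0.12 in colon tumours and 0.26 in small-intestinal tumours. The part of sex, array median and RNA quality in the ACKR2 differences, and that of sex in the tumour differences, was not tested.

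Promoters of 13 of the members held the core of the element through which STAT2 and IRF9 are known to act. RefSeq promoter windows, 250 bases before to 50 after the start on GRCm38.p6, matched 37 of the 48 members. The ISRE core, a repeat of TTTC spaced by any 2 bases and searched on both strands (the other strand reads as a repeat of GAAA), was present in 13 of these 37, or 35.1%, against 3.99% of the 27025 genes with a window. By role it was found in 5 of 6 GTPases, 6 of 15 antiviral effectors, 2 of 6 sensors and transcription factors, 0 of 5 modifiers and 0 of 3 antigen-processing genes. The GAS core TTCNNNGAA, which reads the same on both strands, was present in 10 of 37 (27.0%) against 9.55% of all genes. Bst2, Eif2ak2, Igtp and Irgm2 held both cores, which overlapped in Bst2. The 250 bases before the start of 4 members are printed 5' to 3' on the gene's strand, to show where the ISRE core (in capitals) lies. They were picked only among members with a core upstream of the start, by the smaller difference of both tumour ACKR2 pairs. Members with larger such differences than Gbp2 but no core in their window included Ubd, Oasl2, Sp100 and Ube2l6. Usp18, Rtp4 and Zbp1 also had larger ones but no window. The Ifit1 window is chr19:34640639-34640888 (plus strand), that of Igtp is chr11:58199306-58199555 (plus strand), that of Rsad2 is chr12:26456453-26456702 (minus strand) and that of Gbp2 is chr3:142620413-142620662 (plus strand).
Ifit1: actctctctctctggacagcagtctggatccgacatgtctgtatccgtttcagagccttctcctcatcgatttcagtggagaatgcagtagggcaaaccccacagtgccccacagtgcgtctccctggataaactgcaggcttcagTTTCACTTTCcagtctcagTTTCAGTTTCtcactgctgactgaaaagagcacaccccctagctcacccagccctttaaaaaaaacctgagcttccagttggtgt
Igtp: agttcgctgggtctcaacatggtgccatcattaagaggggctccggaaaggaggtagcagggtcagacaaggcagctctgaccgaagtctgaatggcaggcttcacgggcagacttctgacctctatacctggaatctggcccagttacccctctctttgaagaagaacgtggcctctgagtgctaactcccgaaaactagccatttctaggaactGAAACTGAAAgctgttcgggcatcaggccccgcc
Rsad2: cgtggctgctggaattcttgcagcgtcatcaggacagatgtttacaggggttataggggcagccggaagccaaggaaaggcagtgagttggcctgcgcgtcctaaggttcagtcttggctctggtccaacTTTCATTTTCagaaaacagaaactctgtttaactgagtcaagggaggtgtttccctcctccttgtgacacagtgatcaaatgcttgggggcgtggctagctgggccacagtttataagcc
Gbp2: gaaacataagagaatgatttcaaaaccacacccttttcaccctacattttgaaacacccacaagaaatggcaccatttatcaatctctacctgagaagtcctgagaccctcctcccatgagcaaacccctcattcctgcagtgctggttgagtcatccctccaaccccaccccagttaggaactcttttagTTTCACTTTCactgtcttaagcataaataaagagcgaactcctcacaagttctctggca
Ifit1 held 2 cores, which began 104 and 85 bases upstream of the start. The single core began 34 bases upstream in Igtp, 120 in Rsad2 and 59 in Gbp2. Of the 13 members with an ISRE core, 10 were higher in the deficient array of all 4 ACKR2 pairs, as were 12 of the 24 members with a window and no core (13.4% of all genes tested were). The medians of their mean differences were 0.53 and 0.42 log2, and the difference between these groups of members was not tested. A match is a stretch of letters and not a measured binding site. Oas2, Mx1, Mx2, Rtp4, Dhx58, Zbp1, Usp18, Parp9, Parp14, Tap2 and Nlrc5 were not matched to a window.

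The small intestine held more of these transcripts than the colon. Of the 48 members 31 were higher in the small-intestinal array than in the colon array in all 4 genotypes, as were 15.4% of all genes tested, and 33 were so without the WT arrays (18.5% of all genes). Isg20, an exonuclease that degrades viral RNA, was the only member higher in colon in all 4 (25.5% of all genes). In limma's fit over all arrays, the difference between non-tumour colon and non-tumour small intestine was called at adjusted p under 0.05 for 28 members lower in colon (8.4% of all genes) and for Isg20 higher in colon (13% of all genes), by 2.35 log2 (SE 0.25, adjusted p = 0.00244). The largest differences were those of Ubd, the ubiquitin-like modifier FAT10, at -4.30 log2 in colon relative to small intestine (SE 0.51, adjusted p = 0.00354), and of the GTPase Ifi47 at -3.83 (SE 0.19, adjusted p = 0.000196). Among antigen-processing genes, the immunoproteasome subunits Psmb8 and Psmb9 were lower in colon by -2.36 (SE 0.19) and -2.62 (SE 0.19), with limma's adjusted p = 0.000918 and 0.000701. No member was called when any 1 array was left out of the fit, which leaves 1 residual degree of freedom.

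**Figure D1:**
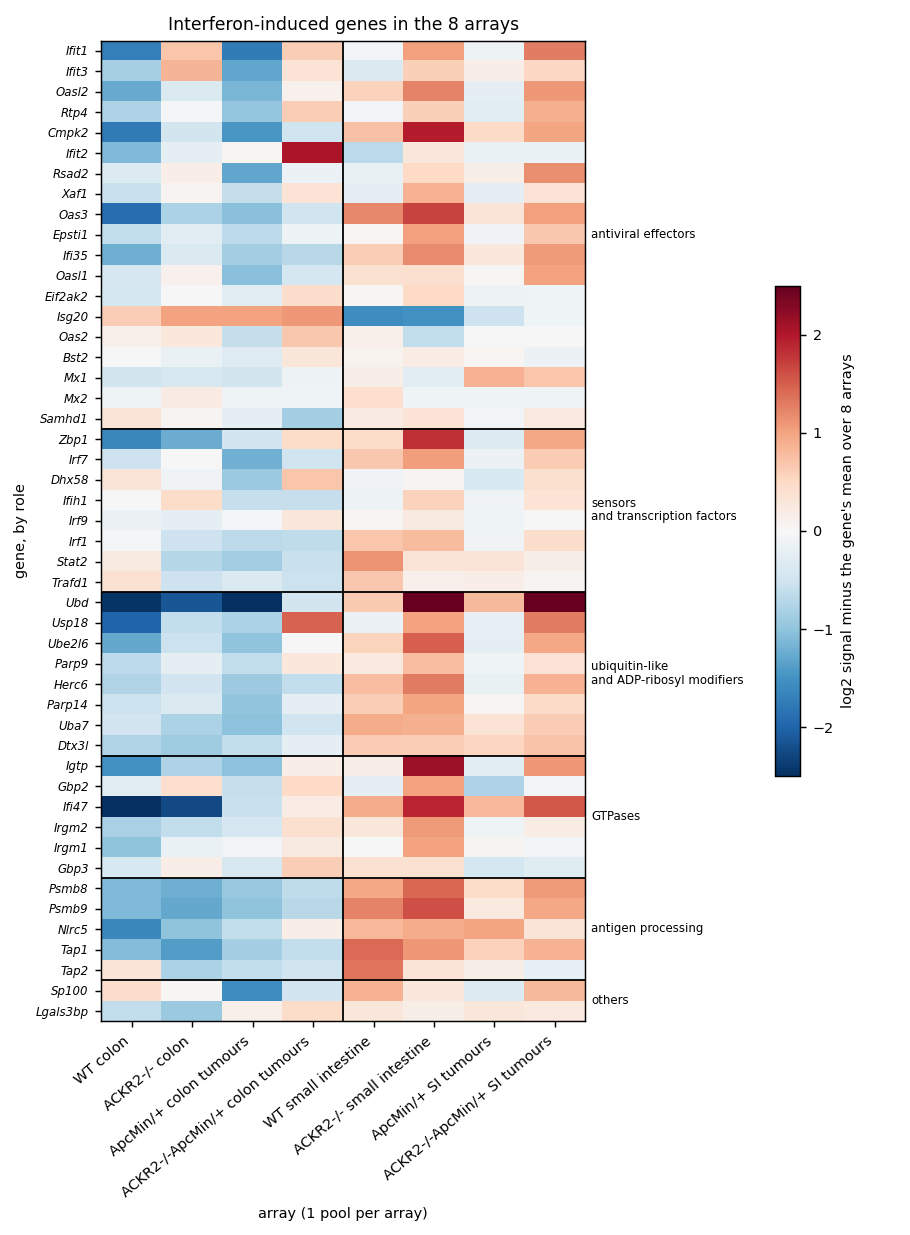
Heat map of the 48 members (rows, grouped by role) in the 8 arrays (columns); colour is the log2 signal minus that gene's mean over the arrays. Most rows are highest in the small-intestinal ACKR2-deficient columns, where the array of ACKR2-/- small intestine is highest for 24 members.

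Ranked within each gene, the array of ACKR2-/- small intestine was the highest of the 8 for 24 members, against 10.8% of all genes, and without WT small intestine it was the highest of the other 7 for 27 (13% of all genes). The highest array was that of ACKR2-/-ApcMin/+ colon tumours for 9 members (21.4% of all genes), WT small intestine for 7 (9.84%), ACKR2-/-ApcMin/+ small-intestinal tumours for 5 (8.26%), ApcMin/+ small-intestinal tumours for 2 (8.29%) and ACKR2-/- colon for 1 (14.8%), namely Ifit3. No member was highest in WT colon (17.4%) or in ApcMin/+ colon tumours (9.22%). The array of ApcMin/+ colon tumours was the lowest for 18 members (4.88% of all genes, and also 18 members and 5.54% of all genes without WT small intestine), WT colon for 15 (10.1%) and ACKR2-/- colon for 7 (10%), of which 4 were the antigen-processing genes Psmb8, Psmb9, Tap1 and Tap2. For 6 further members it was ACKR2-/-ApcMin/+ colon tumours in 2 (13.1%), ApcMin/+ small-intestinal tumours in 2 (4.28%), WT small intestine in 1 (12.7%) and ACKR2-/- small intestine in 1 (16%). Mx1 and Mx2 had no single lowest array, because several of their arrays were set to the floor.

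Across the 4 ACKR2 pairs, 27 of the 48 members were higher in the deficient array every time, against 13.4% of all genes tested. These were 13 of 19 antiviral effectors, 3 of 8 sensors and transcription factors (Ifih1, Irf7 and Zbp1), 6 of 8 modifiers and 5 of 6 GTPases, and none of the 5 antigen-processing genes. With each array centred on its median the count was 34 (32.9% of all genes), and with quantile normalization 31 (19.2%), where Ifih1 dropped out. Without the non-tumour small-intestinal pair, 28 members were higher in the remaining 3 pairs (15.3% of all genes). Trafd1, a feedback inhibitor of innate signalling, was the only member lower in all 4 pairs (19.1% of all genes were), though not with median centring. It read 1144 and 616 in non-tumour colon, 682 and 600.5 in colon tumours, 1405 and 954 in non-tumour small intestine, and 981 and 923 in small-intestinal tumours, and the gaps were wider in non-tumour tissue than in tumours.

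Pair by pair, 33 members were higher in the deficient array in non-tumour colon (44.8% of all genes), 37 in non-tumour small intestine (43.3%), 45 in colon tumours (46.2%) and 38 in small-intestinal tumours (39.1%). The median differences of the members were 0.36, 0.46, 0.71 and 0.49 log2 in the same order, while those of all genes were 0, -0.001, 0 and -0.07. After median centring the members' medians were 0.54, 0.73, 0.83 and 0.75. Differences of at least 2-fold were found for 5 members in non-tumour colon (2.01% of all genes), 8 in non-tumour small intestine (1.57%), 14 in colon tumours (1.96%) and 11 in small-intestinal tumours (1.94%), and for 20 members in at least 1 pair (6.22%). In the other direction, Tap2 alone reached 2-fold in either non-tumour pair (5.11% and 6.9% of all genes were at least 2-fold lower there), and no member did in a tumour pair (4.91% and 4.62%).

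**Figure D2:**
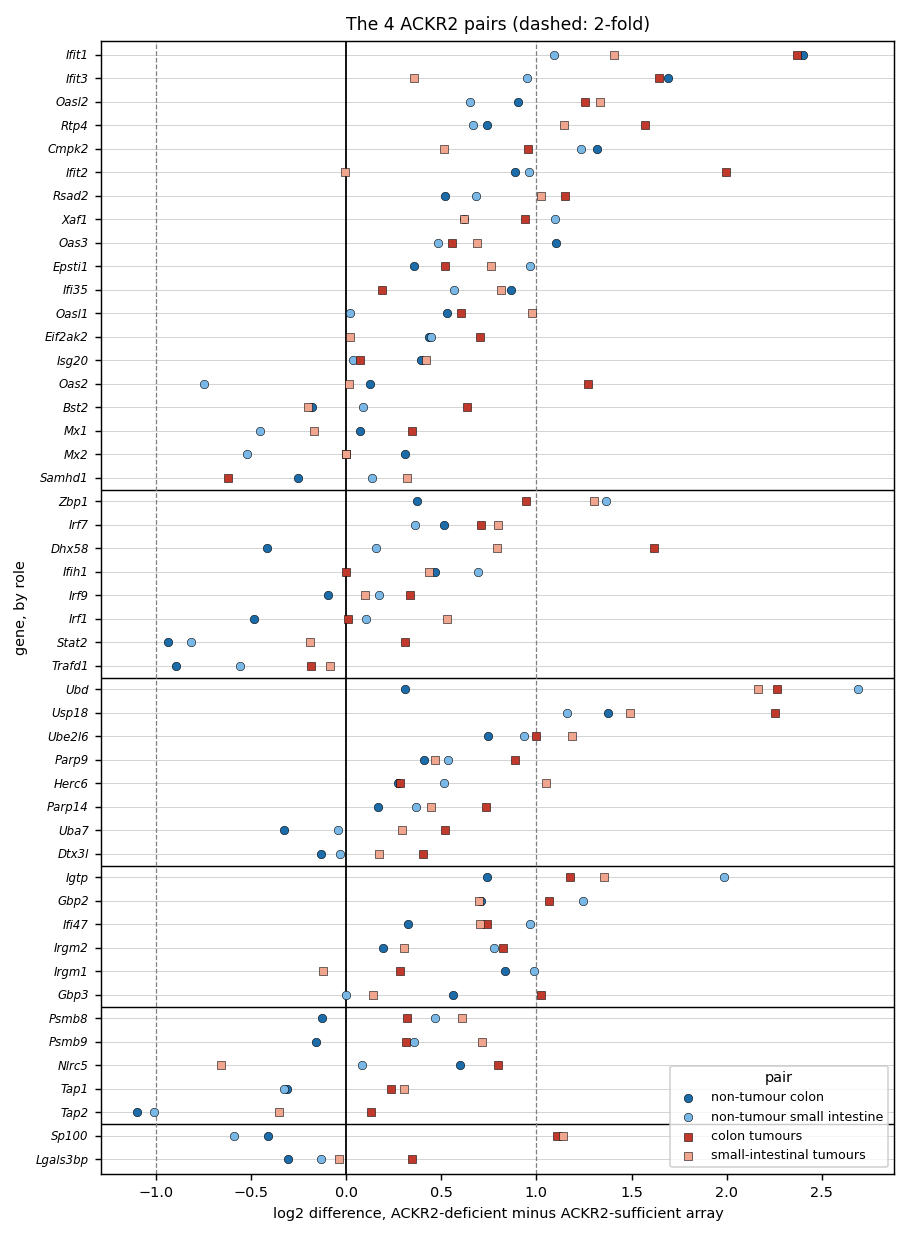
Log2 difference between the ACKR2-deficient and ACKR2-sufficient array for each member (rows, by role), 1 dot for each of the 4 pairs; dashed lines mark 2-fold. Ifit1 and Usp18 have all 4 dots beyond the 2-fold line, and Tap2 has both non-tumour dots beyond it on the other side.

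Ifit1 and Usp18 were the only members at least 2-fold higher in all 4 pairs, where 0.0357% of all genes were, and also in the 3 pairs other than non-tumour small intestine (0.0357%). Ifit1 binds viral RNA that lacks the host's cap methylation and keeps it from being translated. Its signal was 273 and 1440.1 in non-tumour colon, 264 and 1368 in colon tumours, 851 and 1816 in non-tumour small intestine, and 817 and 2165 in small-intestinal tumours. The deficient arrays, 1368 to 2165, did not overlap the sufficient ones, 264 to 851, and the differences were 2.40 in non-tumour colon, 1.09 in non-tumour small intestine, 2.37 in colon tumours and 1.41 in small-intestinal tumours on the log2 scale. Usp18 removes ISG15 from proteins and, apart from that activity, restrains signalling from the type I interferon receptor. It read 170.3 and 442 in non-tumour colon, 393 and 1876 in colon tumours, 611 and 1367 in non-tumour small intestine, and 588 and 1654 in small-intestinal tumours. Both tumour arrays of ACKR2-/-ApcMin/+ mice were the highest for Usp18, and WT colon was the lowest. Non-tumour colon was lowest in both groups, so the groups overlapped across tissues, while every pair differed by 1.16 log2 or more.

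Among the antiviral effectors, the members of the Ifit family did not differ alike. Ifit3, another member of the family, read 235 and 758 in non-tumour colon, 170.03 and 531 in colon tumours, 329 and 635 in non-tumour small intestine, and 472 and 604 in small-intestinal tumours. Its groups did not overlap, but the gap in small-intestinal tumours was narrow. Ifit2 read 224 and 415 in non-tumour colon, 498 and 1986 in colon tumours, 302 and 589 in non-tumour small intestine, and 431 and 429 in small-intestinal tumours. The array of ACKR2-/-ApcMin/+ colon tumours stood far above the other 7, and in small-intestinal tumours the deficient and sufficient arrays were level.

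Rtp4, a chaperone that also regulates interferon signalling, was among the 5 members (Gbp2, Ifit1, Ifit3, Rtp4 and Xaf1) whose 4 deficient arrays all lay above all 4 sufficient arrays, as did 2.91% of all genes. No member had all 4 below (4.83%). Leaving out WT small intestine added Eif2ak2, the kinase PKR that halts translation, and Gbp3 (3.49% of all genes). For Eif2ak2 this rests on the chosen probe set. A further one of similar brightness was higher in 2 of 4 pairs, and another in 0 of 4 (mean -0.29 log2). Rtp4 signals were 1093 and 1828 in non-tumour colon, 962 and 2861 in colon tumours, 1779 and 2826 in non-tumour small intestine, and 1559 and 3451 in small-intestinal tumours. Its pair differences were larger in tumours, 1.57 in colon and 1.15 in small intestine, than in non-tumour tissue, 0.74 and 0.67 log2. Xaf1, which promotes apoptosis, read 474 and 728 in non-tumour colon, 459 and 879 in colon tumours, 595 and 1272 in non-tumour small intestine, and 586 and 901 in small-intestinal tumours. All 4 sufficient arrays of Xaf1 were between 459 and 595, and the lowest of the 4 deficient ones was 728. A dimmer further probe set of Xaf1 averaged -0.18 log2 over the 4 pairs.

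Oasl2, a member of the oligoadenylate synthetase family, read 584 and 1092 in non-tumour colon, 630.1 and 1504 in colon tumours, 2089 and 3285 in non-tumour small intestine, and 1174 and 2963 in small-intestinal tumours. In each tissue the deficient arrays were above the sufficient ones. Rsad2, or viperin, makes a nucleotide analogue that ends viral RNA synthesis, and its neighbour on the chromosome, Cmpk2, phosphorylates nucleotides. Rsad2 read 599 and 859 in non-tumour colon, 311 and 691 in colon tumours, 675 and 1082 in non-tumour small intestine, and 841 and 1712 in small-intestinal tumours. Cmpk2 read 176 and 439.8 in non-tumour colon, 219.8 and 427 in colon tumours, 999 and 2352 in non-tumour small intestine, and 839.6 and 1199 in small-intestinal tumours. For Rsad2 the pair differences were 1.15 and 1.03 log2 in tumours against 0.52 and 0.68 in non-tumour tissue. By its chosen probe set Cmpk2 had the reverse order, with 1.32 and 1.24 in non-tumour colon and small intestine and 0.96 and 0.51 in the tumours. A dimmer Cmpk2 probe set, above the floor in all 8 arrays, had the order of Rsad2. It averaged 0.24 log2 in non-tumour tissue and 0.53 in tumours, and read 175 and 180 in non-tumour colon.

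The other antiviral effectors spanned a wide range of behaviour. By their chosen probe sets, Oas3, Oasl1, Epsti1, Ifi35, Eif2ak2 and Isg20 were higher in all 4 pairs. The differences ran from 0.021 log2 for Eif2ak2 in small-intestinal tumours to 1.11 for Oas3 in non-tumour colon. Ifi35, a leucine-zipper protein, read 1559.9 and 2841 in non-tumour colon, 1987 and 2264 in colon tumours, 5588 and 8276 in non-tumour small intestine, and 4348 and 7649 in small-intestinal tumours, with the narrowest gap in colon tumours. Oas2 was higher in 3 pairs, by 1.27 log2 in colon tumours, and lower in non-tumour small intestine (-0.75). Bst2, the tether that holds budding virions at the cell surface, was higher in 2 of 4 pairs and stayed between 233 and 362 in all 8 arrays. Samhd1, which depletes the nucleotides that retroviruses need, was likewise higher in 2 pairs, with -0.62 log2 in colon tumours. Mx1 ranged from 56.2 to 161 and Mx2 from 10.4 to 91.9, close to or under the floor, and neither was higher in more than 2 pairs. Laboratory strains such as C57BL/6 carry defective Mx1 alleles.

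Sensors and transcription factors were split. Ifih1 (MDA5), the cytosolic sensor of long double-stranded RNA, was higher in all 4 pairs, but in colon tumours it was level, at 1669.5 and 1671 (log2 difference 0.0013). Irf7, the master regulator of type I interferon genes, read 1174 and 1677 in non-tumour colon, 727 and 1189 in colon tumours, 2671 and 3435 in non-tumour small intestine, and 1504 and 2615 in small-intestinal tumours. Every deficient array was above its partner, by 0.36 to 0.80 log2. Zbp1, a sensor of Z-form nucleic acid that can start necroptosis, read 303 and 393 in non-tumour colon, 667 and 1285 in colon tumours, 1273 and 3282 in non-tumour small intestine, and 733 and 1809.6 in small-intestinal tumours. The array of ACKR2-/- small intestine was highest for Zbp1 and WT colon lowest.

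Members of the transcription complex itself were not higher throughout. Stat2 read 272 and 142 in non-tumour colon, 127 and 158 in colon tumours, 508 and 289 in non-tumour small intestine, and 291 and 255 in small-intestinal tumours. Both non-tumour deficient arrays were lower than their partners, by -0.94 and -0.81 log2, and the tumour pairs were 0.31 and -0.19. Irf9 stayed between 716 and 1031 in all 8 arrays. Irf1, a factor induced mainly by type II interferon, differed by -0.49 log2 in non-tumour colon and by 0.53 in small-intestinal tumours. Dhx58 (LGP2), a regulator of the RNA sensors, was 1.62 in colon tumours and -0.42 in non-tumour colon, with signals of 75.4 to 231 throughout. As a group, the 8 sensors and factors had medians of -0.26 log2 in non-tumour colon, 0.17 in non-tumour small intestine, 0.32 in colon tumours and 0.48 in small-intestinal tumours.

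All 8 modifiers were higher in the deficient arrays of both tumour pairs (22.5% of all genes were), as measured by their chosen probe sets. Ubd, which marks proteins for the proteasome and responds to type II interferon and TNF, read 139 and 173 in non-tumour colon, 115 and 554 in colon tumours, 1203 and 7777 in non-tumour small intestine, and 1342 and 6016 in small-intestinal tumours. Small-intestinal arrays were above colon arrays throughout, and the deficient array was 6.46-fold above its partner in non-tumour small intestine, 4.80-fold in colon tumours and 4.48-fold in small-intestinal tumours, but 1.24-fold in non-tumour colon. Ube2l6, the conjugating enzyme for ISG15, read 64.5 and 108 in non-tumour colon, 77.9 and 155 in colon tumours, 231 and 441 in non-tumour small intestine, and 134 and 305 in small-intestinal tumours. Its deficient arrays were above their partners by 0.75 to 1.19 log2. Herc6, the mouse ligase for ISG15, and the ADP-ribosyltransferases Parp9 and Parp14 were also higher in all 4 pairs. Herc6 differed by 0.27 to 1.05 log2, Parp9 by 0.41 to 0.89 and Parp14 by 0.17 to 0.74. Uba7, the activating enzyme for ISG15, and Dtx3l, the partner of Parp9, were lower in both non-tumour pairs and higher in both tumour pairs, with differences between -0.32 and 0.52 log2 for Uba7 and between -0.13 and 0.41 for Dtx3l. A dimmer probe set of Uba7 was higher in 0 of 4 pairs, with a mean of -0.61 log2 in tumours. A further probe set of Dtx3l of similar brightness was higher in 4 of 4 pairs, with means of 0.51 in non-tumour tissue and 0.77 in tumours.

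The GTPases Igtp, Irgm1, Irgm2 and Ifi47 act on the membranes around intracellular pathogens, and the guanylate-binding proteins Gbp2 and Gbp3 join them there. Igtp (Irgm3) read 544 and 908 in non-tumour colon, 769.5 and 1742 in colon tumours, 1754 and 6956 in non-tumour small intestine, and 1290.4 and 3296 in small-intestinal tumours. ACKR2-/- small intestine was the highest array, at 3.97 times its partner, and the smallest pair difference was that of non-tumour colon. Gbp2 read 866 and 1416 in non-tumour colon, 712 and 1492 in colon tumours, 897 and 2124 in non-tumour small intestine, and 619 and 1003 in small-intestinal tumours. The 4 sufficient arrays of Gbp2, 619 to 897, were below the 4 deficient ones, 1003 to 2124. Irgm1 read 464 and 828 in non-tumour colon, 888 and 1079 in colon tumours, 933 and 1852 in non-tumour small intestine, and 968 and 890.5 in small-intestinal tumours. Its differences were 0.84 and 0.99 log2 in the non-tumour pairs and 0.28 and -0.12 in the tumour pairs. Irgm2 and Gbp3 were higher in all 4 pairs, by 0.19 to 0.82 log2 for Irgm2 and 0.0014 to 1.03 for Gbp3, and so was Ifi47, by 0.33 to 0.97. Over the 6 GTPases the medians were 0.64, 0.98, 0.93 and 0.50 log2 in non-tumour colon, non-tumour small intestine, colon tumours and small-intestinal tumours.

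**Figure D3:**
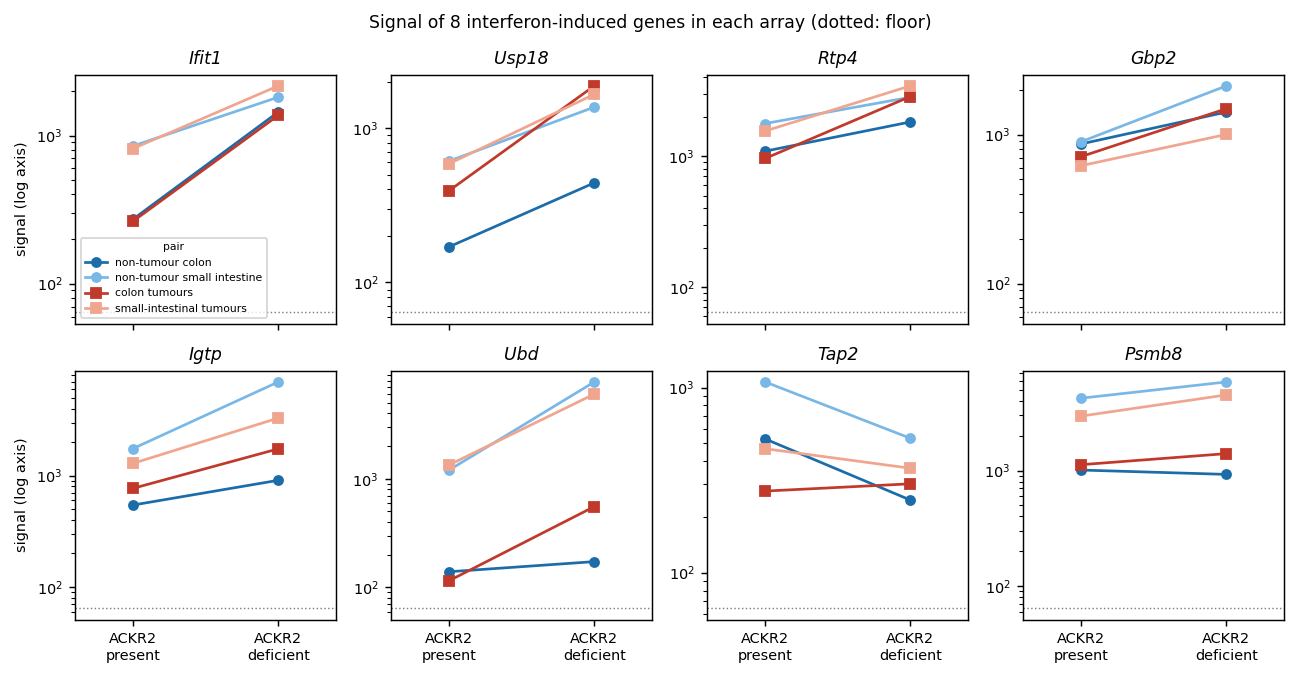
Signal (log axis) of 8 members in the 8 arrays, 1 point for each array, with the ACKR2-sufficient and ACKR2-deficient array of each tissue joined; the dotted line is the floor of 64.1. Ifit1 is higher in the deficient array of every pair, Ubd differs by 1.24-fold in non-tumour colon and by at least 4.48-fold in the other pairs, and Tap2 is lower in both non-tumour deficient arrays.

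None of the antigen-processing genes was higher in all 4 pairs. Psmb8, a catalytic subunit of the immunoproteasome, read 1009 and 926 in non-tumour colon, 1123 and 1399.8 in colon tumours, 4225 and 5838 in non-tumour small intestine, and 2958 and 4508 in small-intestinal tumours. In non-tumour colon the deficient array was slightly lower, and in the other 3 pairs it was higher. Psmb9 had the same pattern, from -0.16 log2 in non-tumour colon to 0.72 in small-intestinal tumours. Tap2, which with Tap1 forms the transporter that carries peptides into the endoplasmic reticulum, read 528 and 247 in non-tumour colon, 276 and 302 in colon tumours, 1072 and 532 in non-tumour small intestine, and 467 and 366 in small-intestinal tumours. Both non-tumour deficient arrays were more than 2-fold below the WT arrays (2.28% of all genes were at least 2-fold lower in both), and the tumour pairs differed by 0.13 and -0.35 log2. Tap1 was lower in both non-tumour pairs, by -0.31 and -0.33, and higher in both tumour pairs, by 0.24 and 0.30. Nlrc5, the transactivator of class I genes, differed by 0.60, 0.085, 0.80 and -0.66 log2 in non-tumour colon, non-tumour small intestine, colon tumours and small-intestinal tumours.

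The remaining members, Lgals3bp and Sp100, were lower in both non-tumour deficient arrays. Lgals3bp differed by -0.31 in non-tumour colon, -0.13 in non-tumour small intestine, 0.35 in colon tumours and -0.036 in small-intestinal tumours. Sp100, a nuclear-body protein that restricts DNA viruses, read 259 and 195 in non-tumour colon, 63.4 and 138 in colon tumours, 349 and 232 in non-tumour small intestine, and 151 and 334 in small-intestinal tumours. It was thus lower in both non-tumour deficient arrays and at least 2-fold higher in both tumour ones, with the ApcMin/+ colon tumour array just under the floor. Its other probe set averaged 0.10 log2 over the tumour pairs, against 1.12 for the chosen probe set. In all, 8 members were at least 2-fold higher in both tumour pairs (0.207% of all genes): Sp100, Ifit1, Igtp, Oasl2, Rsad2, Rtp4, Ubd and Usp18. None was 2-fold lower in both (1.35%). In both non-tumour pairs Cmpk2 (by its chosen probe set), Ifit1 and Usp18 reached 2-fold (0.371%). Counted without a fold limit, 37 members were higher in both tumour pairs (22.5% of all genes) and 30 in both non-tumour pairs (30.2%), while 8 were lower in both non-tumour pairs (35.5%) and 1, Trafd1, in both tumour pairs (31.7%).

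Fitted with 1 ACKR2 effect for the tumours and 1 for non-tumour tissue, no member passed limma's adjusted p of 0.05 in either (2 residual degrees of freedom). In tumours 0 members were called (0% of all genes were called higher and 0.0357% lower). At unadjusted p under 0.05, 27 members were higher and 0 lower, against 5.17% and 10.4% of all genes, and the members' median was 0.61 log2 against -0.03. The lowest adjusted p was 0.0868, for Oasl2 (1.30 log2, SE 0.15) and Rtp4 (1.36, SE 0.16), both higher in 2 of 2 tumour pairs. In non-tumour tissue 0 members were called (0.128% of all genes higher, 0.556% lower), 21 were higher and 3 (Stat2, Tap2 and Trafd1) lower at unadjusted p under 0.05 (10.6% and 14.2% of all genes), and the median was 0.42 against -0.02. Cmpk2, by its chosen probe set, had the lowest adjusted p in limma, 0.0516 (1.28 log2, SE 0.21). With 1 non-tumour array left out, the non-tumour effect rested on the pair of the other tissue alone. The members' median was 0.36 log2 without either small-intestinal array (0 for all genes). It was 0.46 without either colon array (-0.001 for all genes). Fewer members passed the unadjusted threshold in each of these fits, and so did fewer of all genes.

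A model with a single ACKR2 effect shared by all 4 pairs has 3 residual degrees of freedom and called 18 of the 48 members, all higher, against 1.86% of all genes higher and 3.89% lower. The called members were 9 antiviral effectors (Cmpk2, Epsti1, Ifi35, Ifit1, Ifit3, Oasl2, Rsad2, Rtp4 and Xaf1), the sensor Zbp1 and the factor Irf7, 4 modifiers (Parp9, Ubd, Ube2l6 and Usp18) and 3 GTPases (Gbp2, Ifi47 and Igtp). Ifit1 was 1.82 log2 higher (SE 0.24, limma's adjusted p = 0.0282), Usp18 1.57 (SE 0.20, adjusted p = 0.028), Ubd 1.86 (SE 0.36, adjusted p = 0.039) and Igtp 1.31 (SE 0.19, adjusted p = 0.0291), each in 4 of 4 pairs. No antigen-processing gene was called. The members' median was 0.51 log2 and that of all genes -0.04. Leaving out any 1 of the 8 arrays ended every call, of members and of all genes alike. The lowest member adjusted p in limma was then 0.105 to 0.214. The tumour arrays alone also gave 0 calls, of members and of all genes.

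Whether the ACKR2 effect differed between tumours and non-tumour tissue was tested directly, and no member was called (0% of all genes higher and 0.00713% lower). At unadjusted p under 0.05, the signed difference (deficient minus sufficient) was more positive in tumours for Dhx58, Rtp4, Sp100, Stat2, Tap2 and Uba7 (3.84% of all genes) and less positive for Irgm1 (4.22%). For Stat2 and Tap2 it was 0.062 and -0.11 log2 in tumours and -0.88 and -1.05 in non-tumour tissue. For Dhx58 the order rests on the chosen probe set. Its dimmer probe sets averaged 0.25 and -0.05 log2 in tumours, against 0.31 and 0.04 in non-tumour tissue. For Sp100 the estimate was 1.63 log2 (SE 0.34, limma's adjusted p = 0.549), and for Irgm1 -0.83 (SE 0.26, adjusted p = 0.571). Across the 48 members the median of this difference was 0.27 log2, and that of all genes -0.02.

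Against non-tumour tissue, tumours held more of some members in colon and less of others, and Ifi47 and Zbp1 were the members whose tumour effect differed between the tissues. In colon, limma called 6 members higher in tumours (11% of all genes) and 4 lower (12.6%). Ifi47 was 2.23 log2 higher (SE 0.19, adjusted p = 0.00241), Ifit2 1.70 (SE 0.45, adjusted p = 0.0416), Usp18 1.65 (SE 0.24, adjusted p = 0.00755), Zbp1 1.42 (SE 0.27, adjusted p = 0.0157), Lgals3bp, a secreted glycoprotein, 1.06 (SE 0.16, adjusted p = 0.00801) and Irgm1 0.66 (SE 0.18, adjusted p = 0.0455). Those lower were Sp100 at -1.26 (SE 0.24, adjusted p = 0.0173), Ifih1 at -0.81 (SE 0.17, adjusted p = 0.0201), Rsad2 at -0.63 (SE 0.18, adjusted p = 0.0472) and Irf7 at -0.59 (SE 0.14, adjusted p = 0.0311). The shares called higher and lower were near or under those of all genes. Sex make-up also differed between the tumour and non-tumour arrays, and its part in these calls was not tested.

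In small intestine 0 members were called (2.77% of all genes higher, 1.2% lower), and 3 were higher and 17 lower in tumours at unadjusted p under 0.05 (12.2% and 7.94% of all genes). The tumour effect itself differed between the tissues for Ifi47, by 2.45 log2 (colon minus small intestine, SE 0.28, limma's adjusted p = 0.0183), and for Zbp1, by 2.25 (SE 0.37, adjusted p = 0.0452), against 0.735% of all genes. Ifi47 read 209.7 and 263 in non-tumour colon and 852 and 1423 in colon tumours, but 2387 and 4669 in non-tumour small intestine and 2240.4 and 3654 in its tumours. Without regard to a test, 20 members were higher in tumours in both colon pairs (35.2% of all genes) and 29 lower in tumours in both small-intestinal pairs (25.8%). Higher in tumours in both colon pairs and lower in both small-intestinal pairs were 13 members (3.82% of all genes), among them Igtp, Psmb8, Psmb9, Tap1, Oasl2 and Parp9, and Rsad2 had the opposite pattern (5.75%). The calls for the colon tumour effect and for the difference between tissues were lost when any 1 array was left out. The tumour arrays also differed from non-tumour tissue in cell make-up: smooth-muscle genes were lower in tumours in all 4 comparisons, by medians of -2.53 and -4.84 log2 in colon and -1.97 and -2.81 in small intestine. In colon tumours limma called 3 of 6 neutrophil genes and 2 of 5 pan-leukocyte genes higher (list medians 2.02 and 0.66), and in small-intestinal tumours 4 of 5 pan-leukocyte genes and 5 of 8 B and plasma cell genes (1.87 and 2.90). The tumour effect itself differed between the tissues for 2 neutrophil genes, higher in colon, and for 5 B and plasma cell genes, higher in small intestine (list medians 2.06 and -3.52, colon minus small intestine). The part of these cells in the Ifi47 and Zbp1 differences was not tested.

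**Figure D4:**
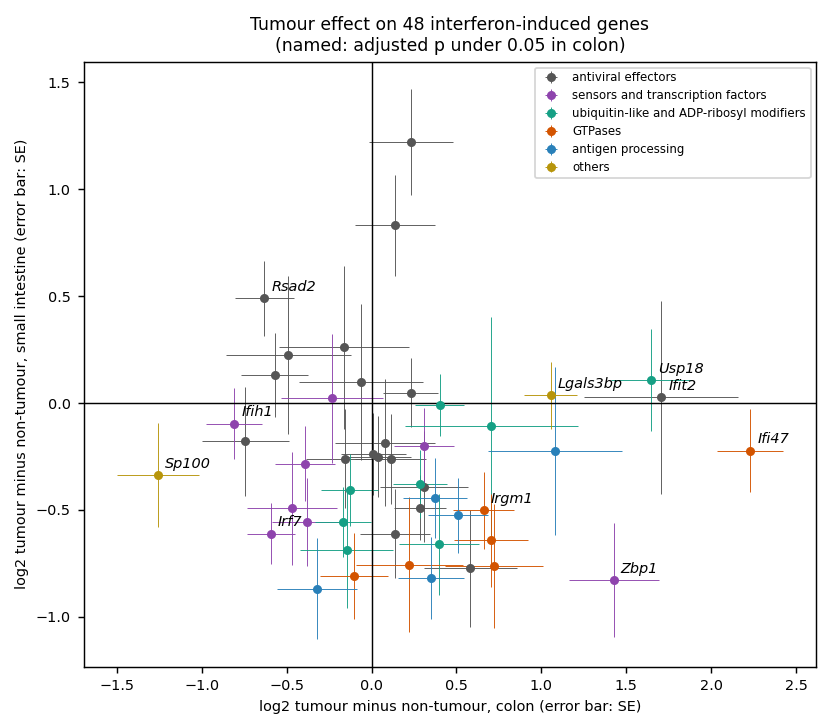
Tumour effect (log2, tumour minus non-tumour, limma estimate with its SE) in colon (horizontal axis) and small intestine (vertical axis), 1 point for each member; named points had an adjusted p under 0.05 in colon. Ifi47 (2.23 in colon) and Zbp1 (1.42 in colon) lie right of zero in colon and below it in small intestine.

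Further genes of the pathway, listed apart from the 48, shared the pattern only in part. Of 10 interferon genes listed, 6 had a probe set, and Ifna2, Ifna4, Ifna5 and Ifng were not above the floor in any array. Ifnb1 was above it in 1 array, ACKR2-/- small intestine (70.3), and Ifna1 in 2 (74.0 in ACKR2-/-ApcMin/+ colon tumours and 76.7 in WT small intestine). Of 9 receptors and kinases of the pathway 0 were called in the shared-effect model, with pair medians of -0.11 to 0.16 log2. Among 32 other interferon-induced genes, Ddx60, Oas1a, Slfn2 and Trim30a were called higher, by 1.03, 0.85, 0.93 and 1.08 log2, and Pml was called lower, by -0.96. Their medians in non-tumour colon, non-tumour small intestine, colon tumours and small-intestinal tumours were -0.0023, 0.14, 0.33 and 0.17. Of 12 genes of transcription and induction Ddx58 (RIG-I) was called higher (0.75) and Irf2, a competitor of Irf1, lower (-0.76). Of 7 negative regulators Irf2bp2 was called lower (-0.57), while Socs3, which blocks cytokine receptor signalling, was lower in non-tumour tissue in the fit with separate effects (-2.04 log2, SE 0.21, limma's adjusted p = 0.0378), and of 11 class I genes the chaperone Canx higher (0.80). All of these calls were also lost with any 1 array left out.

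Markers of other cells differed in the same pairs. Medians of the stromal lists were below zero in all 4 pairs. Smooth-muscle genes (8 of 8), fibroblast genes (7 of 7) and endothelial genes (6 of 6) were lower in the deficient array of both tumour pairs, with medians of -2.46, -1.02 and -0.97 log2 in colon tumours and -1.29, -1.91 and -1.07 in small-intestinal tumours. In the non-tumour pairs of colon and small intestine, 7 and 5 of 8 smooth-muscle genes (medians -0.30 and -0.35), 5 and 5 of 7 fibroblast genes (-0.41 and -1.19) and 5 and 6 of 6 endothelial genes (-0.56 and -1.05) were lower. B and plasma cell genes were lower there for 8 and 6 of 8 (-0.94 and -1.21), and pan-leukocyte genes for 5 and 4 of 5 (-0.82 and -0.35), while their medians in colon and small-intestinal tumours were -0.47 and 0.25 for B and plasma cells and -0.014 and 0.36 for pan-leukocyte genes. In the fit with separate effects, limma called Synm of the smooth-muscle list lower in tumours (-3.41 log2, SE 0.27, adjusted p = 0.0454) and Col1a1 of the fibroblast list lower in non-tumour tissue (-2.23, SE 0.22, adjusted p = 0.0378). The T and NK cell list, whose cells make type II interferon, had medians of 0 and -0.06 in non-tumour colon and colon tumours and 0.61 and 0.66 in the non-tumour and tumour pairs of small intestine, where 10 and 11 of its 13 tested genes were higher. In the colon pairs 10 and 5 of the 13 were equal, at the floor in both arrays. Its granzyme Gzma read 5868 and 13787 in non-tumour small intestine and 5217 and 11445 in small-intestinal tumours, against 33.3 to 264 in the colon arrays, and Cd4 was at or under the floor in all 8. Summed over the list, T and NK signals were 713 and 648 in non-tumour colon and 1212 and 967 in colon tumours. They were 10738 and 21207 in non-tumour small intestine and 9736 and 18254 in small-intestinal tumours, with Gzma the largest part in small intestine. In colon tumours Gzma read 264 and 112. The lists of 10 macrophage and dendritic-cell genes, 5 plasmacytoid dendritic-cell genes and 8 epithelial genes had pair medians between -0.38 and 0.36. Small-intestinal enterocyte genes were 0.86 log2 higher in the deficient array of small-intestinal tumours (9 of 9), and -0.26 in non-tumour small intestine (1 of 9 higher). The part of these cells in the members' differences was not tested.

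**Figure D5:**
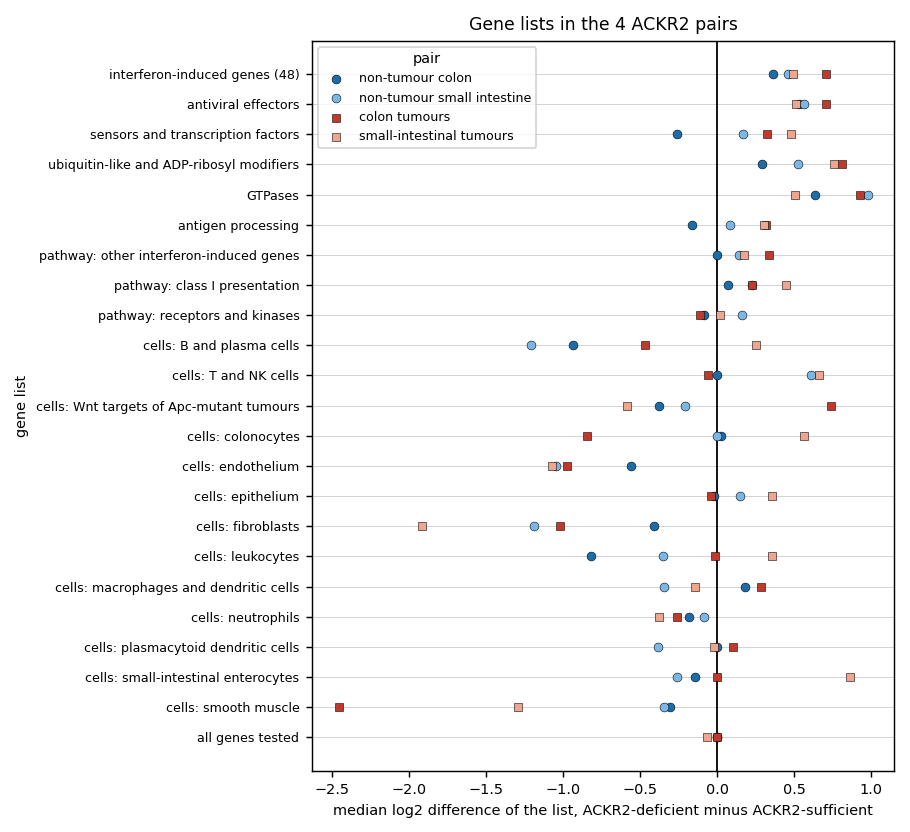
Median log2 ACKR2 difference of the member groups and of the marker lists in the 4 pairs, 1 point for each pair. Stromal lists lie below zero in all 4 pairs (smooth muscle at -0.30 and -0.35 in non-tumour colon and small intestine and -2.46 and -1.29 in their tumours), whereas GTPases, antiviral effectors and modifiers lie above zero in all 4.

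Measurements by other probe sets were available for 20 members, through 34 further probe sets, of which 30 were above the floor in at least 2 arrays. The mean ACKR2 difference of 19 had the sign of the chosen probe set and that of 11 the opposite sign, in Dhx58, Eif2ak2, Epsti1, Parp14, Samhd1, Sp100, Uba7 and Xaf1. For these 8 genes the sign of the mean over the 4 pairs depends on the probe set, and for Dtx3l the sign in non-tumour tissue does too. For Cmpk2 and Dhx58 the order of the tumour and non-tumour differences also depends on the probe set. Epsti1 and Xaf1 are among the 18 members called with a shared effect. Averaging all probe sets of a gene left 8 of those 18 calls, with 441 of all genes called. Ifit1 and Usp18 are each measured by a single probe set.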

How the data were processed

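Each of the 8 arrays measured 1 RNA pool. Per the labels' protocols, RNA was extracted with Trizol and QIAGEN columns and labelled with Affymetrix's 3' IVT Express kit. The authors' deposited values were MAS5 intensities on the linear scale (MAS5 and Partek are named in the submitters' processing notes, with versions not given), and the mean of each array after trimming 2% was 500. Of 45101 probe sets, 64 were controls, 34945 had 1 gene, 932 several and 9160 none in the platform annotation. Signals below the floor (64.1, log2 6.00) were set to it before log2, so differences of dim genes are understated.

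The test was limma 3.58.1 in R 4.3.3 with a trend, empirical Bayes (4.16 prior degrees of freedom) and Benjamini-Hochberg adjustment over the 14023 genes tested. It had 6 coefficients: a level for each tissue with and without tumour, and 1 ACKR2 effect for tumours and 1 for non-tumour tissue. The median posterior SD was 0.22 log2. The shared-effect model had 5 coefficients and was a listed alternative. The number of arrays limits the precision. The scripts were tested on simulated data. Named with values were members called or among the 10 with the largest smaller difference of both pairs in each direction, the member of highest mean in each role, called members of the tumour effects, up to 4 called genes of each list, and control genes; others were chosen after their values were seen.

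The members and the gene lists were chosen with earlier results of these data known. Alternatives were the floor, the filter, quantile normalization, median centring, the mean of a gene's probe sets, no trend, 1 ACKR2 effect, a 1.5-fold limit and leaving out arrays.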

Additional observations from a re-analysis of the deposited data

Results flagged for a closer look

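The tumour effect on Ifi47 was 2.45 log2 larger in colon than in small intestine (SE 0.28, limma's adjusted p = 0.0183), by a test of the difference itself. Tumour minus non-tumour values of Ifi47 were 2.02 log2 in ACKR2-sufficient and 2.44 in ACKR2-deficient colon, and -0.09 and -0.35 in small intestine. For Zbp1 the same test gave 2.25 log2 (SE 0.37, limma's adjusted p = 0.0452). Its values were 1.14 and 1.71 in colon and -0.80 and -0.86 in small intestine. For both genes the 2 colon values lay above the 2 small-intestinal ones. The call was lost when any 1 array was left out. Smooth-muscle genes were lower in tumours in both tissues, and the difference of the tumour effects between tissues had a list median of 2.06 log2 for neutrophil genes (2 of 6 called) and -3.52 for B and plasma cell genes (5 of 8 called). The part of these cells in the Ifi47 and Zbp1 differences was not tested.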

How the results depend on the processing

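With 1 array in each group, the number of arrays limits every call: leaving out any 1 array gave 0 called members for the tumour effects, the tissue difference, both ACKR2 effects and the shared ACKR2 effect. Leaving out both WT arrays or both ACKR2-/-ApcMin/+ arrays also gave 0 for the tumour effect difference and for the tissue difference, as did the tumour arrays alone for the shared effect. ACKR2 effects of the pairs that lose an arm under such a leave-out were not run. No paired analysis was possible because each group has 1 array and the groups share fewer than 2 replicate numbers. This refers to pairs of replicates. Through the level for each tissue with and without tumour, the fits did set each deficient array against its partner. The ACKR2 effect in tumours, with 0 members called, had 3 with no floor, with genes above the floor in all 8 arrays and with median centring, and 18 with 1 ACKR2 effect for all arrays. Over all genes 41, 82, 18 and 806 were called at these settings in that order, against 5 in the main fit. In non-tumour tissue the same settings gave 2, 10, 18 and 18 members. Of all genes they gave 427, 851, 1320 and 806, against 96 in the main fit. Members called in the colon tumour effect numbered 6 rather than 10 with no trend (2842 rather than 3312 of all genes). The small-intestinal tumour effect, with 0 (557 of all genes), had 4 with median centring (777 of all genes). It had 1 with no floor, above the floor in all 8, the mean of all probe sets, no trend or 1 ACKR2 effect (386 to 627 of all genes). For the difference between these tumour effects the 2 members (316 of all genes) became 6 with median centring (437 of all genes). They became 1 with no filter, no trend, the mean of probe sets, or the 25th or the 60th percentile as floor (148 to 214 of all genes). At a 1.5-fold limit the members counted higher were 15 in non-tumour colon, 19 in non-tumour small intestine, 27 in colon tumours and 22 in small-intestinal tumours. At the 2-fold limit, median centring gave 9 in non-tumour colon and 15 in non-tumour small intestine, against 5 and 8. Shares of all genes are not given for these 1.5-fold and median-centred counts, so they cannot be set against a background. Centring also raised the differences of all genes, by 0.18 log2 in non-tumour colon and 0.27 in non-tumour small intestine. The 18 calls of the shared effect became 8 with the mean of probe sets (441 of all genes) and 10 with no trend (426), against 806 of all genes. These alternatives were chosen after seeing the data, as were the counts without the WT small-intestinal array or its pair. Direction turned for small ACKR2 effects that were not called: Trafd1 in tumours to 0.054 log2 with median centring, and in non-tumour tissue Lgals3bp to 0.0061, Uba7 to 0.043 and Dtx3l to 0.14 with median centring, Dtx3l to 0.21 with the mean of probe sets, and Sp100 to 0.31, Uba7 to 0.11 and Dtx3l to 0.10 with 1 ACKR2 effect. Centring adds the shift of each array's median by construction; the other causes were not tested. Over 39 results for named members and 732 alternatives, 579 kept direction and side of the threshold, 45 gained the call, 100 lost it and 8 turned.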
